A study of Homo sapiens with 12 samples.

Results

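The heat shock protein and DNAJ genes are the molecular chaperones of the HSP70, HSP90, HSP110, HSP60, HSP10 and small heat shock protein families together with the J-domain proteins that recruit HSP70 to its clients. They were taken as every probe whose symbol in the scanner tables begins with HSPA, HSPB, HSPD, HSPE, HSPH, HSP90 or DNAJ, which gave 108 probes for 69 symbols among the 25158 symbols on the array. The prefixes also bring in genes that are not chaperones of these families, such as HSPBP1 and HSPBAP1, and the pseudogene HSP90AB4P. Of the 69 symbols, 46 had a probe detected on at least 3 of the 12 arrays (detection p under 0.01) and were tested, and 41 of the 46 were detected on all 12 arrays. The tested genes comprised 3 of 4 DNAJA, 9 of 12 DNAJB, 16 of 21 DNAJC, 8 of 13 HSPA, 4 of 7 HSP90 and 3 of 9 HSPB symbols, and HSPD1, HSPE1 and HSPH1. The 23 symbols without a tested probe were DNAJA4, DNAJB7, DNAJB8, DNAJB13, DNAJC4, DNAJC5B, DNAJC5G, DNAJC6, DNAJC16, HSP90AB2P, HSP90AB6P, HSP90B3P, HSPA1A, HSPA1L, HSPA2, HSPA12A, HSPA12B, HSPB2, HSPB3, HSPB6, HSPB7, HSPB8 and HSPB9, and 22 of them were detected on no array.

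RNA of Reh, a human cell line established from an acute lymphoblastic leukemia of B-cell precursors, was hybridised to 12 arrays of a HumanHT-12 v3 BeadChip in 4 groups of 3. The groups were untreated cells without stroma, cells exposed for 48 h to the DNA synthesis blocker Ara-C (cytarabine) without stroma, and cells exposed in the same way beside either HS or HS-5 stromal cells. HS-5, labelled HS5, is an immortalised human bone marrow stromal line, HS is the labels' name for the other stroma and not an abbreviation of heat shock here, and no group combined stroma with untreated cells. The labels call the samples independent triplicates of 1 cell line, and the dose of Ara-C and the way leukemia cells were parted from stroma are not given in the sources used here.

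HSP70 proteins bind unfolded stretches of other proteins and release them in a cycle driven by ATP. J-domain proteins deliver clients and trigger ATP hydrolysis, while nucleotide exchange factors such as HSP110 and BAG proteins reset the cycle. HSP90 takes over clients such as kinases and steroid receptors at a late stage of folding, small heat shock proteins hold unfolded proteins without ATP, and HSP60 with its lid HSP10 forms a folding chamber in mitochondria. On protein damage, heat shock factor 1 (HSF1) trimerises and binds heat shock elements, repeated and alternately inverted GAA units, in the promoters of the inducible members. Separate family members serve the endoplasmic reticulum, where they answer to the unfolded protein response, and the mitochondrial matrix, where they pull in and fold imported proteins.

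The promoters are shown because HSF1 binds these elements in the promoters of inducible members. Promoter windows of 300 bases (250 before the annotated start and 50 from it) were taken from RefSeq on GRCh38.p14 for 43 of the 46 tested genes. The strict form searched was GAANNTTCNNGAA or TTCNNGAANNTTC, which covers both strands, and overlapping matches were kept. It occurred in 172 of all 35116 windows (0.49%), and in 7 of the 58 windows of the tested genes (12.1%), 1 window in each of 7 genes. A looser pair of units (GAANNTTC or TTCNNGAA), which every strict match also contains, was in 13.5% of all windows and 25.9% of those of the tested genes, while the CCAAT box (CCAAT or ATTGG) was in 34.6% and 34.5%. HSPA1B, the stress-inducible HSP70, had the pair and no strict match in its window. A match is a description of the letters and does not show binding, and a missing match says only that these letters were not in the window. The stretches below run 5′ to 3′ on the strand of the gene, with up to 30 bases on each side of the matches, and capitals mark the strict element, or for HSPA1B the pair.
DNAJA1: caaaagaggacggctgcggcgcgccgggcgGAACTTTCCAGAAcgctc
HSP90AA1: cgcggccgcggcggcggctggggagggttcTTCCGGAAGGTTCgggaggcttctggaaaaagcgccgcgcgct
HSP90AB1: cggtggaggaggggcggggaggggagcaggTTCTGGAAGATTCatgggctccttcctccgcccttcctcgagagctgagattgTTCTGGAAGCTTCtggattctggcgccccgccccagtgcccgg
HSPA6: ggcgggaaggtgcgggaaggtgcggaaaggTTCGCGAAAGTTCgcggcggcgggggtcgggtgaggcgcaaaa
HSPA8: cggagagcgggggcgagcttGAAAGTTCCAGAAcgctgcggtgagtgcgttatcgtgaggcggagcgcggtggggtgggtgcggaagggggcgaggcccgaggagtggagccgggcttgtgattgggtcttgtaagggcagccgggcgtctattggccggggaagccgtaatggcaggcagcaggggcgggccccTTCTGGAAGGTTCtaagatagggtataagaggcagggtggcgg
HSPD1: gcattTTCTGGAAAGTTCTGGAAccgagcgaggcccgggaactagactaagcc
DNAJB6: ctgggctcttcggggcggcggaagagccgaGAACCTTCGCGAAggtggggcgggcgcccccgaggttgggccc
HSPA1B: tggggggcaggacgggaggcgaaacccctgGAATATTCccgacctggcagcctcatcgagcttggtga

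These stretches lie on GRCh38.p14 at chr9:33025246-33025293 (plus strand, the element just after the annotated start) for DNAJA1, chr14:102087090-102087162 (minus strand) for HSP90AA1, chr6:44247748-44247873 (plus strand) for HSP90AB1, chr1:161524436-161524508 (plus strand) for HSPA6, chr11:123062149-123062386 (minus strand) for HSPA8, chr2:197500038-197500090 (minus strand) for HSPD1, chr7:157336843-157336915 (plus strand) for DNAJB6 and chr6:31827603-31827670 (plus strand) for HSPA1B. HSPD1 has an annotated start 105 bases and another 539 bases from that of HSPE1, which is transcribed in the opposite direction, and its element lies upstream of the farther one. That places the element downstream of the nearer HSPD1 start. It is also on the upstream side of the HSPE1 start, but beyond the edge of the HSPE1 window, so HSPE1 counts as without an element. The changes of the 7 genes with a strict element differed in sign at the tested probes. With Ara-C DNAJA1, HSP90AA1 and HSPA6 rose, HSP90AB1 fell, and HSPA8, HSPD1 and DNAJB6 did not pass the test. At other kept probes HSPA8 and HSPD1 were lower and DNAJB6 was higher with Ara-C, each passing the test. The call of HSP90AA1 was lost without some single arrays and was not made at its second probe.

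**Figure D1:**
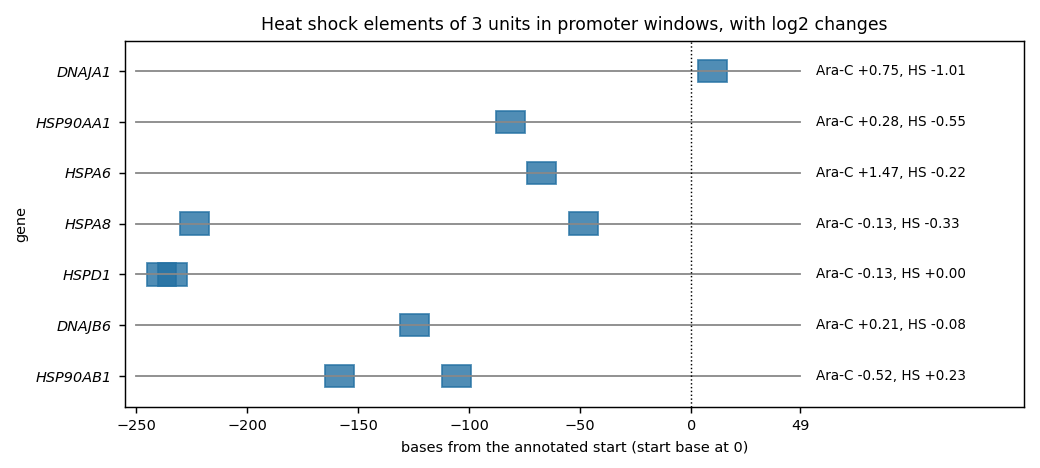
Position of each strict heat shock element (blue boxes) in the promoter window of the 7 tested genes that hold one, in bases from the annotated start on the gene's own strand. The text at the right gives the fitted log2 change at the tested probe with Ara-C against untreated and with Ara-C and HS against Ara-C. DNAJA1 turns from 0.75 to -1.01, and HSP90AB1 has the opposite signs (-0.52 and 0.23). Other kept probes of HSPA8, HSPD1 and DNAJB6 gave other results.

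Between 13064 and 14898 probes per array were detected, and arrays of a group correlated at r = 0.992 to 0.994 over the tested genes. The labelled cell type was checked on 17 markers of B-lineage precursors: 12 were detected on every untreated array, while PAX5, CD22, VPREB1 and BLNK were detected on no array. MPO (log2 intensity 15.3 ± 0.13, SD, n = 3 untreated arrays) and CTSG (13.6 ± 0.06), which granulocyte precursors express, and CD3D (11.2 ± 0.03), a T-cell gene, were detected on all 12 arrays. Of the 11 T and NK markers, however, 6 were detected on no array (CD2, CD3E, CD3G, CD5, CD7 and KLRD1). Of the 14 granulocyte markers 2 were detected on no array (CEACAM8 and LTF). Of 30 stromal fibroblast markers 19 were on no array, also with stroma, including COL1A1, COL1A2, COL3A1, FN1, LUM, DCN and THY1. Each group occupies 3 adjacent positions of the chip, and effects of position and of group cannot be told apart.

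The comparison of Ara-C with untreated cells asks how the drug alone moved the chaperones. Of the 46 genes, 12 rose and 14 fell (26.1% and 30.4%), against 25.5% higher and 26.3% lower (51.8% in either direction) over all 11183 genes tested, and the median log2 change was -0.05 against -0.03 over all genes. Ara-C and untreated arrays had separate ranges for 28 genes (60.9%, against 60.0% of all genes). The shares called were thus near those of all genes. HSPB1, HSPA1B, HSPA6 and 6 of the 15 cytosolic and nuclear J-domain genes were higher, whereas 5 of the 7 mitochondrial genes were lower and none of them rose (at an unadjusted p under 0.05 in limma also 0 rose). At the tested probes 2 of the 11 genes of the endoplasmic reticulum rose and 0 fell, also at an unadjusted p under 0.05 in limma. Values below are normalized log2 intensities of single arrays in replicate order, changes are log2 differences ± SE of the limma fit, and adjusted p is Benjamini-Hochberg over all genes. Scaling the arrays to a common median, which moved the median of all genes in this comparison to 0.19, gave 15 higher and 9 lower in place of 12 and 14, with 3 of the 7 mitochondrial genes lower. Over all 11183 genes it gave 4067 higher and 1259 lower. Under that scaling the calls of HSP90AA1, DNAJA3, DNAJC7, DNAJC15, DNAJC21 and HSPBAP1 were lost and DNAJB1, DNAJB6, DNAJC3 and HSPA4L were called higher.

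**Figure D2:**
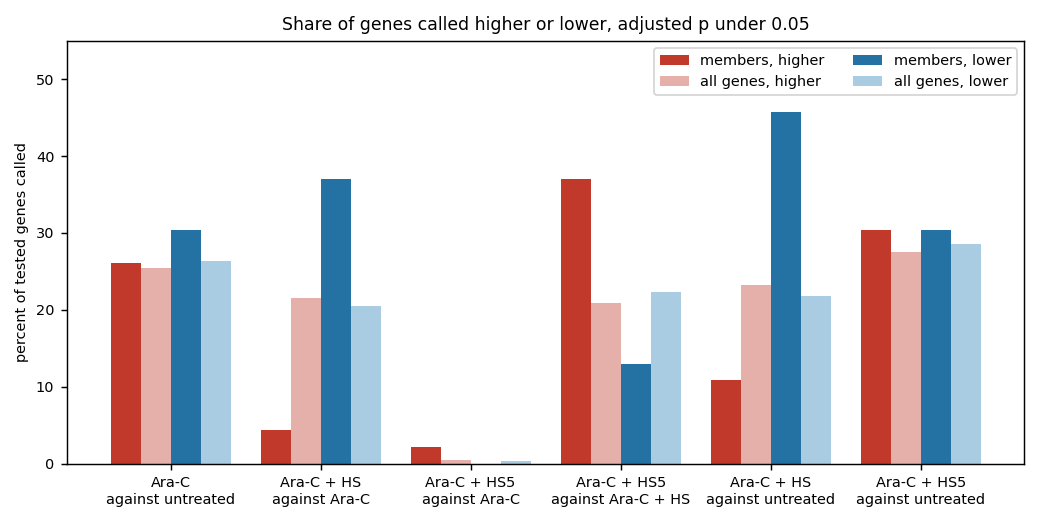
Percent of tested genes called higher (red) or lower (blue) at adjusted p under 0.05 in each of the 6 contrasts, for the 46 heat shock protein and DNAJ genes (dark bars) and for all 11183 genes (pale bars). With Ara-C against untreated the dark and pale bars are close (26.1 and 25.5 higher, 30.4 and 26.3 lower), and with HS against Ara-C the dark bars are uneven (4.35 higher, 37.0 lower).

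Among the cytosolic HSP70 and HSP110 genes 2 of 7 rose and 2 fell. HSPA1B (probe ILMN_1660436) encodes the classic stress-inducible HSP70 and read 9.51, 9.42 and 9.48 on the untreated arrays and 10.08, 10.09 and 10.29 with Ara-C. Every Ara-C array lay above every untreated array, and the gene rose by 0.69 ± 0.09, adjusted p = 5.13e-05 (1.61-fold). HSPA1A, its near-identical neighbour, was detected on no array, and reads of the HSPA1B probe cannot be parted from that copy here because probe sequences were not used. HSPA6, an HSP70 that is expressed under strong stress, was detected on none of the untreated arrays (4.64, 4.82 and 4.56) and on all 3 Ara-C arrays (6.20, 5.76 and 6.49). Its level was at least 1.31-fold higher with Ara-C, where the bound is set against the lowest detected signal of each untreated array (adjusted p = 0.000122 for the fitted difference). HSPA8, the constitutive HSC70, read 13.82, 13.93 and 13.81 untreated and 13.78, 13.61 and 13.79 with Ara-C. Its groups did not overlap, yet the difference of -0.13 ± 0.09, adjusted p = 0.246 did not pass; a second probe gave -0.32 ± 0.10, adjusted p = 0.0167 over all kept probes. HSPH1, the HSP110 exchange factor of HSP70, read 12.07, 11.91 and 12.16 untreated and 11.83, 11.73 and 11.93 with Ara-C. Those arrays overlapped, and the difference was -0.22 ± 0.11, adjusted p = 0.122. HSPA14, an HSP70-like protein of the ribosome-associated complex, read 9.80, 9.91 and 9.89 untreated and 9.04, 9.06 and 9.21 with Ara-C. All Ara-C arrays were lower, and it fell with a change of -0.77 ± 0.13, adjusted p = 0.000339. HSPA4, a relative of HSP110, fell too (-0.53 ± 0.08, adjusted p = 0.000187), and HSPA4L did not pass (0.18 ± 0.12).

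The cytosolic HSP90 isoforms moved in opposite directions. HSP90AA1, the stress-inducible HSP90 alpha, read 13.82, 13.93 and 14.12 untreated and 14.29, 14.18 and 14.24 with Ara-C. The lowest Ara-C array lay just above the highest untreated array, and the gene rose by 0.28 ± 0.09, adjusted p = 0.0209. That call was lost without untreated array 1 or 2 or Ara-C array 1 or 3, with an adjusted p of up to 0.0957, and a second probe gave 0.06 ± 0.12, adjusted p = 0.697. HSP90AB1, the constitutive HSP90 beta, read 13.06, 12.95 and 12.89 untreated and 12.50, 12.53 and 12.32 with Ara-C. Its Ara-C arrays were all lower, and it fell with a change of -0.52 ± 0.10, adjusted p = 0.000686. The pseudogene HSP90AB4P was detected on the 3 untreated arrays (5.90, 6.24 and 6.05) and on no Ara-C array (5.19, 5.06 and 5.29), a level at least 1.32-fold lower with Ara-C. It passed the detection filter only through the untreated arrays, so the filter favoured a lower level elsewhere and its test is no support. It is still counted among the genes lower than untreated in all 3 Ara-C groups. HSPB1, or HSP27, was the small heat shock protein tested, and it read 10.998, 11.15 and 11.10 untreated and 12.10, 12.10 and 12.10 with Ara-C. The Ara-C arrays agreed to the second decimal and all lay above the untreated arrays, and the gene rose by 1.02 ± 0.10, adjusted p = 1.97e-06 (2.03-fold). CRYAA, CRYAB and ODF1, small heat shock proteins outside the prefixes, were detected on no array.

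Of the 15 cytosolic and nuclear J-domain genes 6 rose and 3 fell, with a median change of 0.21. DNAJB2, a J-domain protein that also binds ubiquitin chains, read 7.10, 7.14 and 7.20 untreated and 8.25, 8.43 and 8.45 with Ara-C. It rose by 1.23 ± 0.08, adjusted p = 8.54e-08 (2.35-fold), and its groups were more than 1 log2 unit apart. DNAJB4, a relative of DNAJB1, read 5.98, 6.12 and 6.50 untreated and 7.26, 7.39 and 7.25 with Ara-C, and rose by 1.10 ± 0.18, adjusted p = 0.000178. DNAJC9, a J-domain protein that also chaperones histones, read 11.79, 11.77 and 11.74 untreated and 12.62, 12.61 and 12.71 with Ara-C. Its spread within either group was small beside the rise of 0.88 ± 0.09, adjusted p = 2.7e-06 (1.84-fold). DNAJA1, a main cytosolic partner of HSC70 and HSP70 and the gene with an element at its start, read 13.37, 13.41 and 13.49 untreated and 14.13, 14.28 and 14.13 with Ara-C. Each Ara-C array exceeded each untreated array, and the rise was 0.75 ± 0.09, adjusted p = 9.52e-06 (1.69-fold). DNAJB1, or HSP40, the usual inducible partner of HSP70, read 8.22, 8.50 and 8.44 untreated and 8.83, 8.48 and 8.72 with Ara-C. Those groups overlapped, and its difference of 0.29 ± 0.13, adjusted p = 0.0748 did not pass. DNAJC12 (0.51 ± 0.10, adjusted p = 0.000808), whose product helps fold aromatic amino acid hydroxylases, and DNAJC8 (0.36 ± 0.09), which sits with splicing factors, rose as well. DNAJC7, DNAJC17 and DNAJC21 fell, with changes of -0.37, -0.56 and -0.49, and the call of DNAJC7 was lost without untreated array 3 or Ara-C array 2 (adjusted p of up to 0.096).

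The mitochondrial chaperones were lower with Ara-C in 5 of 7 cases, with a median change of -0.40. HSPA9, the HSP70 of the mitochondrial matrix and the import motor, read 12.40, 12.48 and 12.41 untreated and 11.87, 11.80 and 11.80 with Ara-C. The groups did not overlap, and the gene fell with a change of -0.61 ± 0.11, adjusted p = 0.000428. DNAJC11, a J-domain protein bound to the complex that shapes mitochondrial cristae, read 6.68, 6.57 and 6.29 untreated and 5.78, 5.80 and 5.88 with Ara-C, and changed by -0.70 ± 0.16, adjusted p = 0.00244. DNAJC19 (-0.72 ± 0.15, adjusted p = 0.00107) and DNAJC15 (-0.40 ± 0.13), J-domain partners of HSPA9 at the import channel, and DNAJA3 (-0.38 ± 0.10), its partner in the matrix, fell too. The call of DNAJC15 was lost without untreated array 1 or 3 or Ara-C array 1 or 2 (adjusted p of up to 0.0953). HSPE1, the HSP10 lid, read 13.10, 13.03 and 12.96 untreated and 12.84, 12.97 and 12.97 with Ara-C, with overlap and a difference of -0.10 ± 0.10, adjusted p = 0.409. HSPD1, the HSP60 chamber, read 13.97, 14.07 and 13.97 untreated and 13.84, 13.95 and 13.84 with Ara-C. The difference of -0.13 ± 0.08, adjusted p = 0.213 did not pass, although its other kept probes gave -0.55 ± 0.09, adjusted p = 0.000231 and -0.94 ± 0.21, adjusted p = 0.00222 over all kept probes; the files do not say which transcripts the probes read.

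In the endoplasmic reticulum HSPA5 and HSP90B1, the main HSP70 and HSP90 of that compartment (BiP and GRP94), did not pass. HSPA5 read 9.53, 9.81 and 9.81 untreated and 9.71, 9.68 and 9.67 with Ara-C, with overlapping arrays and a difference of -0.03 ± 0.11, adjusted p = 0.848. HSP90B1 read 13.73, 13.86 and 13.62 untreated and 13.60, 13.53 and 13.53 with Ara-C, and differed by -0.18 ± 0.10, adjusted p = 0.137. DNAJB9 (ERdj4, a repressor of the stress sensor IRE1) rose by 0.72 ± 0.09, adjusted p = 1.41e-05, and DNAJB14 by 0.29 ± 0.11, a call lost without untreated array 1 or 2 or Ara-C array 2 or 3 (adjusted p of up to 0.146). The other 7 genes of this group ran from -0.16 (DNAJB12) to 0.20 (DNAJC3), and none of them passed at the tested probe. Other kept probes of DNAJB12 averaged 6.625, 7.097 and 6.517 untreated and 6.042, 6.769 and 6.526 with Ara-C. The arrays of its first and second probe in that order did not overlap. Other kept probes of DNAJB14 averaged 7.397, 6.461 and 8.971 untreated and 7.476, 6.304 and 8.905 with Ara-C. HSPBP1, an exchange factor of HSP70, was dim: its tested probe read 6.18, 5.73 and 6.32 untreated and 5.38, 4.93 and 5.57 with Ara-C, and was detected on 2 and 0 of these arrays. Another kept probe was detected on 3 untreated arrays and 1 Ara-C array, and the fitted differences of these probes were -0.79 ± 0.17, adjusted p = 0.00201 and -0.95 ± 0.21, adjusted p = 0.00204. HSPBAP1, a protein that binds HSPB1, fell with a change of -0.54 ± 0.13, adjusted p = 0.00455.

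**Figure D3:**
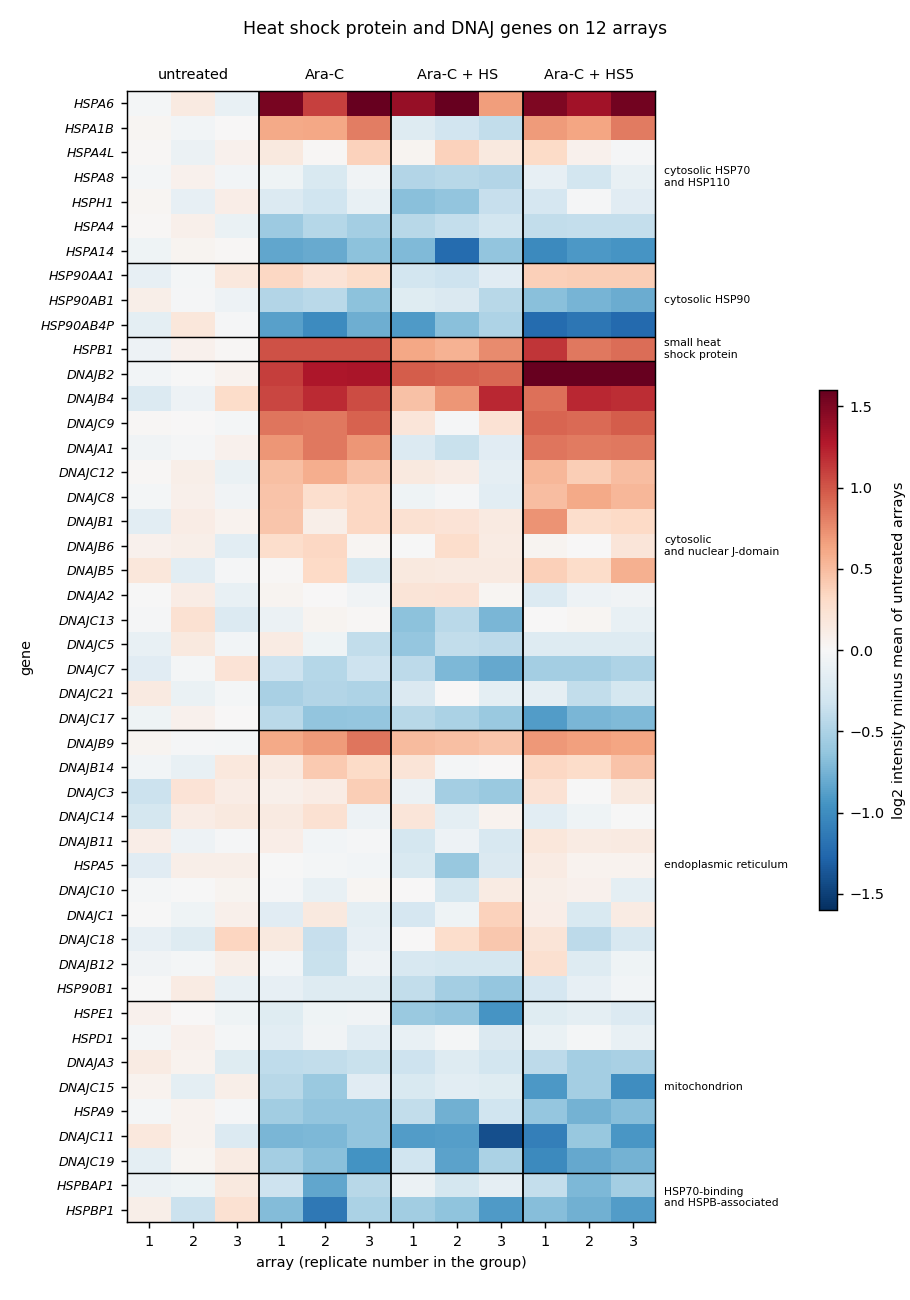
Log2 intensity minus the mean of the untreated arrays for the 46 tested genes (rows, ordered by compartment or family and then by the Ara-C change) on the 12 arrays (columns). Red is higher and blue lower, colours end at 1.6 in either direction and 4 values lie beyond; HSPB1 and DNAJB2 are red on all 9 Ara-C arrays, HSPA1B and DNAJA1 turn blue with HS, and the mitochondrial block is mostly blue in all Ara-C groups.

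With HS stroma the comparison asks how stroma changed the Ara-C state, and here most of the genes called were lower. Against Ara-C alone 2 of the 46 genes rose and 17 fell (4.35% and 37.0%), while 21.6% of all genes were higher and 20.5% lower (42.1% in either direction), and the median change was -0.17 against 0.01 over all genes. The arrays did not overlap for 23 of the 46 genes, against 52.3% of all genes. DNAJA1, HSPA1B, DNAJC9, HSPE1 and HSP90AA1 fell by more than 1.2-fold in a limma test against that minimum. Over all 11183 genes 883 were higher and 892 lower at that minimum. Without it, falls were found in 7 of 15 cytosolic and nuclear J-domain genes, 4 of 11 genes of the endoplasmic reticulum, 3 of 7 HSP70 and HSP110 genes, HSP90AA1, HSPB1 and HSPE1. The 2 rises were DNAJC21 (0.37 ± 0.10, adjusted p = 0.0103) and HSPBAP1 (0.36 ± 0.13), both of which had fallen with Ara-C, although these comparisons share the Ara-C arrays. The rise of HSPBAP1 was lost without any 1 of untreated arrays 1 and 2, Ara-C arrays 2 and 3, HS arrays 1 and 3 and HS5 array 3, with an adjusted p of up to 0.193.

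DNAJA1 read 13.21, 13.06 and 13.24 with HS. All of these were below the untreated arrays as well as the Ara-C arrays, and the change against Ara-C was -1.01 ± 0.09, adjusted p = 1.48e-06, a 2.01-fold lower level. HSPA1B read 9.26, 9.17 and 9.07 with HS, also under every untreated and every Ara-C array. Its change was -0.99 ± 0.09, adjusted p = 4.7e-06 against Ara-C and -0.30 ± 0.09, adjusted p = 0.0196 against untreated cells, the latter not called after scaling to a common median (-0.17, adjusted p = 0.294) or without untreated array 1 or 3 or HS array 3 (adjusted p of up to 0.0717). HSP90AA1 read 13.66, 13.63 and 13.77 with HS. The 3 arrays were below the untreated ones, and the change against Ara-C was -0.55 ± 0.09, adjusted p = 0.000413, with -0.56 ± 0.12 at its second probe. HSP90AB1, by contrast, read 12.78, 12.74 and 12.52 with HS, all below the untreated arrays and array 3 within its Ara-C range, and its difference from Ara-C of 0.23 ± 0.10, adjusted p = 0.0793 did not pass. HSPB1 read 11.70, 11.64 and 11.83 with HS, still above the untreated arrays, and fell against Ara-C with a change of -0.37 ± 0.10, adjusted p = 0.00741. HSPA6 was detected on 2 of 3 HS arrays (6.07, 6.38 and 5.34), overlapped Ara-C and differed by -0.22 ± 0.23, adjusted p = 0.463.

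Among the other HSP70 genes HSPA8 read 13.39, 13.41 and 13.39 with HS. It was lower than in both groups without stroma, with a change of -0.33 ± 0.09, adjusted p = 0.00887 against Ara-C, while its second probe gave -0.19 ± 0.10, adjusted p = 0.162. HSPH1 read 11.37, 11.42 and 11.68 with HS and changed by -0.34 ± 0.11, adjusted p = 0.0258, a call lost without Ara-C array 1 or 3 or HS array 1 or 2 (adjusted p of up to 0.0934). HSPA14 read 9.17, 8.64 and 9.24 with HS, overlapped its Ara-C arrays and stayed without a call (-0.09 ± 0.13). HSP90AB4P (5.16, 5.40 and 5.56) was on no HS array and none of the Ara-C arrays, so it has no fold here; the tested probe of HSPBP1 was detected on 1 HS array (5.53, 5.43 and 5.17).

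J-domain genes of the cytosol and nucleus gave 1 rise and 7 falls with HS. DNAJC9 read 11.96, 11.75 and 12.01 with HS, and changed by -0.74 ± 0.09, adjusted p = 2.36e-05 against Ara-C. The lowest of its HS arrays fell inside the untreated range, from which they differed by 0.14 ± 0.09, adjusted p = 0.219. DNAJC12 read 11.04, 11.11 and 10.91 untreated, 11.51, 11.60 and 11.48 with Ara-C and 11.17, 11.14 and 10.88 with HS, again overlapping its untreated values, and changed by -0.47 ± 0.10, adjusted p = 0.00221. DNAJC8 changed by -0.44 ± 0.09, adjusted p = 0.00128. DNAJC13, which acts with HSC70 on endosomes, had not moved past the test with Ara-C (8.13, 8.39 and 7.92 untreated and 8.05, 8.19 and 8.16 with Ara-C) and read 7.49, 7.72 and 7.41 with HS. The HS arrays lay under both other groups, with a change of -0.59 ± 0.12, adjusted p = 0.00169. DNAJB2 read 8.11, 8.09 and 8.06 with HS, between its untreated and Ara-C levels, and changed by -0.29 ± 0.08, adjusted p = 0.0128, a call lost without Ara-C array 3 (adjusted p = 0.0514). DNAJB4 read 6.66, 6.90 and 7.41 with HS; the tested probe differed by -0.31 ± 0.18, adjusted p = 0.176 and a second probe by -0.71 ± 0.15, adjusted p = 0.0029. DNAJB1 read 8.62, 8.61 and 8.54 with HS, inside its Ara-C range, and differed by -0.09 ± 0.13, adjusted p = 0.605. DNAJC5, a synaptic vesicle chaperone, fell (-0.37), a call lost without Ara-C array 1 or 2 or HS array 1 (adjusted p of up to 0.141). DNAJB6, a J-domain protein that holds back aggregation, did not pass at the tested probe (-0.08 ± 0.11), but its other kept probe gave 0.50 ± 0.09, adjusted p = 0.000488 with Ara-C and -1.43 ± 0.09, adjusted p = 1.93e-07 with HS, and the files do not say which transcript each reads.

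In the endoplasmic reticulum HSPA5 read 9.47, 9.11 and 9.48 with HS and changed by -0.33 ± 0.11, adjusted p = 0.0284. The lowest of these was HS array 2, and the call was lost without it or without any 1 of the Ara-C arrays (adjusted p of up to 0.125). HSP90B1 read 13.35, 13.19 and 13.12 with HS, under every array of the groups without stroma, and changed by -0.33 ± 0.10, adjusted p = 0.015, a call lost without Ara-C array 1 or HS array 3 (adjusted p of up to 0.0598). DNAJC3 (P58IPK, which binds the kinase of the unfolded protein response) was dim: it read 5.19, 5.76 and 5.66 untreated, 5.62, 5.66 and 5.93 with Ara-C and 5.44, 4.998 and 4.94 with HS, and was detected on 1, 2 and 1 arrays of these groups. Its change with HS was -0.61 ± 0.16, adjusted p = 0.00931. DNAJB9 fell by a smaller amount (-0.24 ± 0.09), a call lost without Ara-C array 2 or 3 or any 1 HS array (adjusted p of up to 0.157). Of the mitochondrial genes HSPE1 alone was called with HS: it read 12.43, 12.40 and 12.09, all below the groups without stroma, and changed by -0.62 ± 0.10, adjusted p = 0.000306, with -0.57 ± 0.10 at its second probe. HSPD1, its neighbour across the shared promoter region, read 13.88, 13.97 and 13.78 and differed by 0.00 ± 0.08, adjusted p = 0.981 at the tested probe. A dimmer HSPD1 probe gave -0.57 ± 0.21, adjusted p = 0.0452. Its remaining kept probe went the other way, with a mean of 12.15 with Ara-C and 12.32 with HS and no overlap of arrays. The size of the difference between both genes, and the sign of the HSPD1 change, thus depend on the probe. HSPA9 read 12.04, 11.67 and 12.12 with HS, with array 2 below all Ara-C arrays, and differed by 0.12 ± 0.11, adjusted p = 0.416. DNAJC11 read 5.63, 5.63 and 5.11 with HS, was detected on 1 of these arrays and differed by -0.36 ± 0.16, adjusted p = 0.0816.

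**Figure D4:**
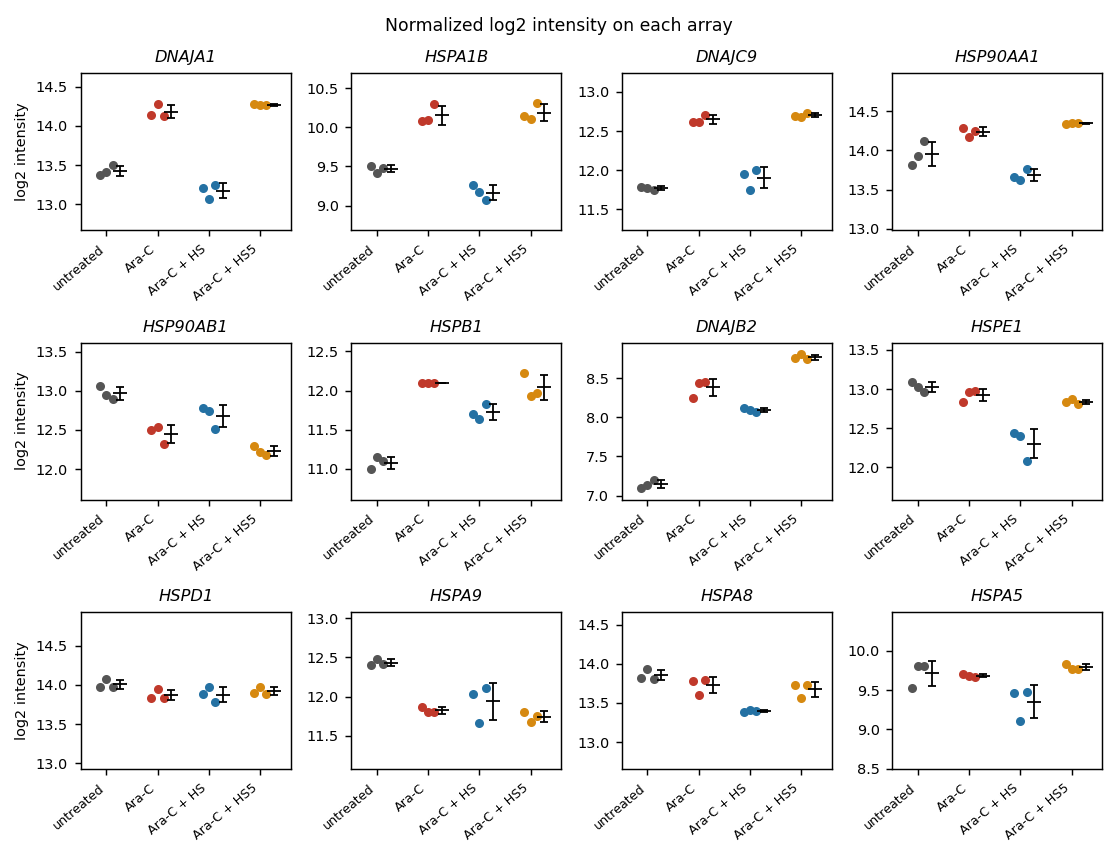
Normalized log2 intensity of 12 genes on each array (points, by group), with the mean and SD of the 3 arrays beside them; every panel spans 2 log2 units. The HS arrays of DNAJA1, HSPA1B, HSP90AA1, HSPE1 and HSPA8 lie below the untreated arrays, the HS5 arrays lie close to the Ara-C arrays, and HSP90AB1 and HSPA9 are lower than untreated in every Ara-C group.

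Marker levels moved in the same comparisons, as sums of linear normalized signal over each list. The 30 stromal markers summed to 12569 to 14609 untreated, 26131 to 28924 with Ara-C, 15600 to 18183 with HS and 25586 to 29127 with HS5. VIM and LGALS1 carried 76.5 to 87.9% of these sums, and the other 28 markers, of which 19 were detected on no array, summed to 1768.8 to 1827.0, 4322.6 to 4803.9, 3662.8 to 3944.6 and 4270.6 to 4703.3. The 17 B-lineage markers summed to 7453.6 to 7915.1, 4714.9 to 4982.6, 7458.7 to 7648.2 and 3709.0 to 4184.4 in the same order. The 11 monocyte markers ran from 2749.7 to 2963.1, 5575.1 to 6178.4, 3997.4 to 4719.6 and 6568.3 to 6766.4, and the 11 T and NK markers from 3153.9 to 3375.7, 6572.9 to 7279.2, 4250.6 to 5168.9 and 7578.2 to 8311.0. The granulocyte markers summed to 58627 to 65162, 45817 to 50638, 49091 to 52043 and 44340 to 46384, of which MPO and CTSG carried 75.7 to 86.6%. Without MPO and CTSG the other 12 were lowest untreated: 8506.4 to 8813.9, 9207.8 to 11169, 10956 to 11681 and 9426.8 to 10765. CD68 and LYZ carried 53.9 to 68.9% of the monocyte sums. The other 9 monocyte markers summed to 1247.6 to 1347, 2096.1 to 2410.5, 1424.1 to 1469 and 2477.4 to 2725.2. CD3D and NKG7 carried 80.2 to 88.3% of the T and NK sums. The other 9 T and NK markers summed to 588.19 to 667.66, 1083.2 to 1180.1, 592.89 to 608.35 and 1064.4 to 1100.3. These sums differ between the groups beside HSPA1B, DNAJA1 and the other genes above, and their part in the results was not tested. In bulk RNA a smaller share of cells of a type and less RNA per cell cannot be told apart.

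With HS-5 stroma the chaperones stayed close to their Ara-C levels. Against Ara-C alone DNAJB2 rose and 0 of the 46 genes fell (2.17% and 0%), beside 0.528% higher and 0.376% lower (0.903% in either direction) over all genes, and at an unadjusted p under 0.05 limma gave 3 higher and 4 lower. Arrays did not overlap for 13 genes (28.3%, against 19.6% of all genes). DNAJB2 read 8.75, 8.80 and 8.74 with HS5, above every other array of the study, and the change was 0.39 ± 0.08, adjusted p = 0.0484. The call was lost without any 1 of the 12 arrays (adjusted p of up to 0.163). DNAJA1 read 14.28, 14.26 and 14.27 with HS5, inside or just above its Ara-C range, and differed by 0.09 ± 0.09, adjusted p = 0.704. HSPA1B read 10.15, 10.10 and 10.30, close to its Ara-C arrays (0.03 ± 0.09). DNAJC9 read 12.70, 12.68 and 12.73 and overlapped Ara-C as well (0.05 ± 0.09). These genes, which were lower with HS, had no call with HS5. HSP90AA1 read 14.34, 14.35 and 14.35, slightly above each Ara-C array (0.11 ± 0.09, adjusted p = 0.656). HSP90AB1 read 12.30, 12.22 and 12.18, slightly below each Ara-C array (-0.22 ± 0.10, adjusted p = 0.363). Neither HSP90 difference passed. HSPB1 read 12.22, 11.93 and 11.97 with HS5, on both sides of its Ara-C values (-0.06 ± 0.10). HSPA6 was detected on all 3 HS5 arrays (6.17, 6.02 and 6.22) and differed by -0.02 ± 0.23. Neither HSPB1 nor HSPA6 passed. HSPA8 read 13.72, 13.56 and 13.73 and overlapped Ara-C (-0.05 ± 0.09). HSPH1 read 11.78, 12.03 and 11.86 and overlapped it too (0.06 ± 0.11). HSPA14 read 8.85, 8.95 and 8.92, all below its Ara-C arrays, but did not pass (-0.20 ± 0.13).

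In mitochondria HSPE1 read 12.83, 12.87 and 12.81 with HS5 (-0.09 ± 0.10), overlapping Ara-C. HSPD1 read 13.90, 13.98 and 13.89 (0.05 ± 0.08). HSPA9 read 11.81, 11.67 and 11.75 (-0.08 ± 0.11), and DNAJC11 was detected on 1 HS5 array (5.42, 5.92 and 5.58). None of these mitochondrial genes passed against Ara-C, and DNAJC15 had the most negative fitted difference of the 46 (-0.41 ± 0.13, adjusted p = 0.193). HSPA5 read 9.84, 9.77 and 9.77, above each of its Ara-C arrays without passing (0.11 ± 0.11). HSP90B1 read 13.47, 13.61 and 13.70 and overlapped Ara-C (0.04 ± 0.10). Of the J-domain genes, DNAJB1 read 9.11, 8.67 and 8.71 with HS5, where array 1 was the highest of the study. DNAJB4 (7.08, 7.41 and 7.38) overlapped its Ara-C arrays. DNAJC12 (11.56, 11.42 and 11.52) and DNAJC13 (8.15, 8.18 and 8.02) overlapped theirs too, as did the dim DNAJC3 (5.78, 5.54 and 5.70, detected on 1 array). HSP90AB4P (4.83, 4.91 and 4.82) was detected on no HS5 and no Ara-C array, and HSPBP1 (5.40, 5.31 and 5.18 at the tested probe) on no HS5 array.

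**Figure D5:**
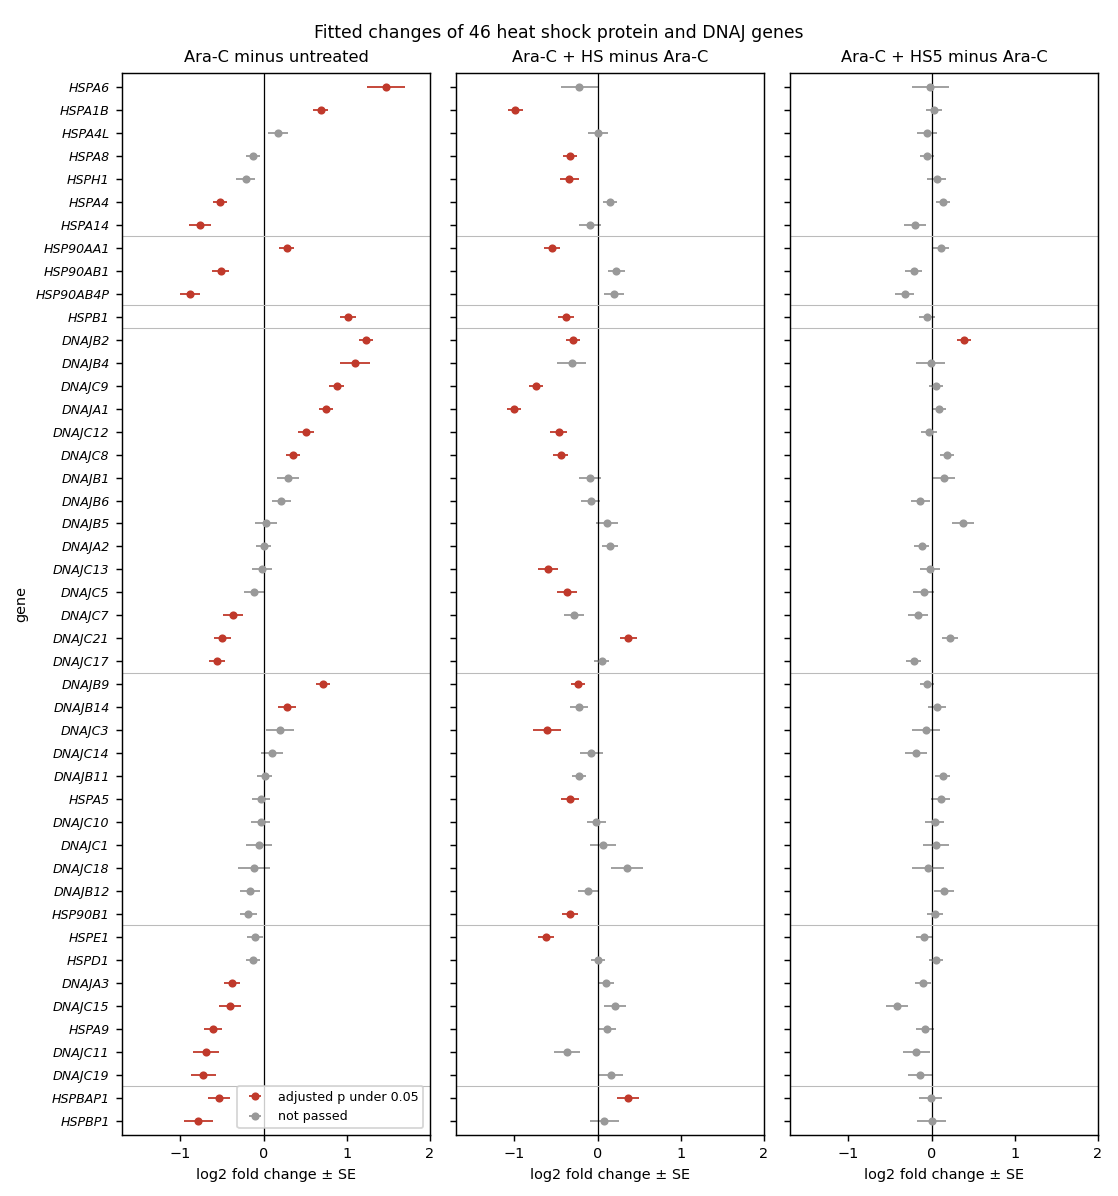
Fitted log2 change ± SE of the 46 tested genes in 3 comparisons (panels), ordered as in the plot of arrays; red points passed at adjusted p under 0.05. Ara-C against untreated spreads to both sides (12 red higher, 14 red lower), HS against Ara-C lies mostly left of 0 (17 lower, 2 higher), and HS5 against Ara-C lies near 0 with DNAJB2 as the red point; fitted changes of HSPA6, HSP90AB4P and HSPBP1 involve a group whose arrays were below background at the tested probe.

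The effects of both stromas differed from each other in 23 of the 46 genes, tested directly as HS5 against HS: 17 were higher with HS5 (37.0%) and 6 lower (13.0%), beside 20.9% and 22.3% of all genes (43.2% in either direction). The 6 lower genes became 3 after scaling to a common median (with 15 higher), without HS array 1 (16 higher) and without HS5 array 2 (17 higher). After that scaling 1791 of all 11183 genes were higher and 2365 lower. HSP90AB4P, 1 of the 6 lower genes, was detected on no array of either stroma group and has no difference to give. Arrays did not overlap for 29 genes (63.0%, against 51.6% of all genes). The differences were 1.10 ± 0.09, adjusted p = 5.68e-07 for DNAJA1, 1.02 ± 0.09 for HSPA1B, 0.80 ± 0.09 for DNAJC9, 0.68 ± 0.08 for DNAJB2 and 0.66 ± 0.09 for HSP90AA1. For each of these genes all HS5 arrays lay above all HS arrays. HSP90AB1 went the other way (-0.44 ± 0.10, adjusted p = 0.00271), again with no overlap, as did DNAJC15 (-0.62 ± 0.13). Of the 23 calls, those of DNAJA2, DNAJC17, DNAJB14, DNAJC3, HSPA8, HSPB1 and HSPBAP1 were not called when certain arrays were left out, with adjusted p of up to 0.14. These were HS array 1 or 2 and HS5 array 1 or 2 for DNAJA2 and DNAJC17, HS array 2 or 3 and HS5 array 1 for DNAJC3, HS array 1 or 3 and HS5 array 1 or 3 for HSPA8, HS array 2 and HS5 array 1 for HSPB1, and HS array 1 or 3 and HS5 array 2 or 3 for HSPBAP1. The call of HSPA8 was also lost after scaling to a common median (0.22, adjusted p = 0.137), and that of HSPB1 in the fit on the 6 arrays compared (adjusted p = 0.0542). For DNAJB14 the arrays were untreated array 1, Ara-C array 3, HS array 2 or 3 and any 1 HS5 array.

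Against untreated cells the groups with stroma share both controls and drug with the comparisons above, so their values are given side by side only. With HS 5 genes were higher and 21 lower (10.9% and 45.7%, against 23.3% and 21.8% of all genes and 45.1% of them in either direction), or 7 and 14 after scaling to a common median. That scaling gave 3296 higher and 1077 lower of all 11183 genes. With HS5 14 members were higher and 14 lower (30.4% each, against 27.5% and 28.6% of all genes and 56.1% of them in either direction). Arrays did not overlap for 30 genes with HS (65.2%, against 53.9%) and for 32 with HS5 (69.6%, against 62.8%). The 5 genes above untreated with HS were DNAJB2 (0.94 ± 0.08), DNAJB4 (0.79 ± 0.18), DNAJB9 (0.48 ± 0.09), HSPB1 (0.64 ± 0.10) and HSPA6, which was at least 1.12-fold higher. HSPA6 was at least 1.29-fold higher with HS5 than untreated, and DNAJB2 3.08-fold higher (1.62 ± 0.08, adjusted p = 5.14e-09). DNAJB1 passed with HS5 (0.44 ± 0.13, adjusted p = 0.0107), a call lost without untreated array 1 or HS5 array 1 (adjusted p of up to 0.0542). Of the genes below untreated with HS, DNAJC11 (-1.06 ± 0.16, adjusted p = 0.00015) and HSPA14 (-0.85 ± 0.13) had the lowest fitted values. HSPE1 (-0.72 ± 0.10), HSPH1 (-0.55 ± 0.11), HSP90B1 (-0.52 ± 0.10), HSPA8 (-0.46 ± 0.09) and HSPA5 (-0.36 ± 0.11) were also below untreated with HS, and none of these 5 passed with HS5 (-0.19, -0.16, -0.14, -0.18 and 0.08). The call of HSPA5 with HS was lost without untreated array 2 or 3 or HS array 2 (adjusted p of up to 0.0806), in the fit on the 6 arrays compared (0.0559) and after scaling to a common median (-0.25, adjusted p = 0.218). HSP90AB4P was at least 1.38-fold lower than untreated with HS and at least 1.24-fold lower with HS5, but it passed the detection filter only through the untreated arrays.

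The partners of these chaperones outside the prefixes were read from lists chosen with earlier results known. Beside the list counts here and in the next paragraph, 25.5% of all 11183 genes were higher and 26.3% lower with Ara-C. With HS against Ara-C these shares were 21.6% and 20.5%. Some genes, among them BAG3, CHORDC1 and HYOU1, are in more than 1 list and are counted in each. HSF1 itself was not called with Ara-C (0.10 ± 0.14), HS (-0.28 ± 0.14) or HS5 (-0.23 ± 0.14). Of 9 tested heat shock factors and regulators, 0 rose and 3 fell with Ara-C, also at an unadjusted p under 0.05 in limma, with a median of 0.02. DAXX (-0.51 ± 0.12, adjusted p = 0.00357) and CHORDC1 (-0.59 ± 0.16, adjusted p = 0.00703) were among those that fell. CHORDC1, an HSP90 partner, fell further with HS (-0.69 ± 0.16, adjusted p = 0.00363), and HSF2BP rose (0.60). The list of 13 exchange factors and partners of HSP70 also holds HSPBP1, which is within the prefixes. Of the 13, 2 rose and 5 fell with Ara-C, HSPBP1 among the latter, and 2 and 4 with HS. BAG3, which links HSP70 to HSPB1 and to selective autophagy, was the leading one: it rose by 1.72 ± 0.10, adjusted p = 1.57e-08 with Ara-C and changed by -0.71 ± 0.10, adjusted p = 8.19e-05 with HS. HYOU1, the exchange factor of BiP, fell with Ara-C (-1.02 ± 0.12), while with HS STUB1 fell (-0.64) and SIL1 rose (0.63). Of 17 HSP90 co-chaperones, 2 rose and 6 fell with Ara-C, and 1 and 6 with HS. UNC45A rose with Ara-C (0.88 ± 0.10, adjusted p = 7.3e-06) and fell with HS (-0.92 ± 0.10, adjusted p = 1.04e-05), and SUGT1 (-0.79) and CACYBP (-0.62) fell with HS. CDC37, the adaptor for kinases, rose with Ara-C (0.46), and TTC4 fell (-0.49).

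The chaperonin TRiC and its partner prefoldin were mostly lower with Ara-C: 10 of 16 tested genes fell and 2 rose, with a median change of -0.34 against -0.03 over all genes. CCT4 (-0.90 ± 0.13, adjusted p = 7.23e-05), PFDN6 (-0.72) and CCT6A (-0.45) had the smallest adjusted p, and with HS 3 rose and 3 fell, among them CCT6B (1.13), PFDN1 (-0.53) and CCT3 (-0.52). Of 15 other chaperones of the endoplasmic reticulum, 0 rose (1 at an unadjusted p under 0.05 in limma) and 6 fell with Ara-C, led by HYOU1, TXNDC5 (-0.64) and CANX (-0.51). With HS 2 rose and 4 fell, SDF2L1 (-0.37) and CRELD2 (-0.39) among the latter. Of 12 other mitochondrial genes, 1 rose and 4 fell with Ara-C, the latter with LONP1, a matrix protease (-0.96 ± 0.08, adjusted p = 8.16e-07), TRAP1, the mitochondrial HSP90 (-1.18), and TIMM44 (-0.46). With HS 3 of the 12 rose, LONP1 (0.40), GRPEL2 (0.38) and HSCB (0.32), and 0 fell, also at an unadjusted p under 0.05 in limma. Of 15 tested genes that heat shock is known to raise outside the prefixes, 3 rose and 8 fell with Ara-C, with JUN (2.10 ± 0.12, adjusted p = 1.29e-08) and BAG3 up and FAM46A (-1.33) down. With HS 3 of these rose and 6 fell, including JUN (-1.39 ± 0.12, adjusted p = 1.31e-06) and BAG3 among the falls and UBB, a polyubiquitin gene (1.10 ± 0.11, adjusted p = 5.83e-06), among the rises. With HS5 against Ara-C, UBB fell (-0.54 ± 0.11, adjusted p = 0.0369) and no other gene of the 7 tested lists was called; at an unadjusted p under 0.05 in limma the lists held 0 to 3 genes in either direction.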

How the data were processed

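Per the file headers, the deposited scanner output of each of the 12 arrays gives 48800 probes a linear, not normalized bead intensity and a detection p-value. The authors also deposited log2 values, which matched the log2 of quantile-normalized signals without background correction to within 0.00594 and were not used in the tests. R 2.9.2 is named in the submitters' processing notes. The median signal per array was 65.4 to 71.7, and the number of arrays limits the precision.

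Signals were corrected and normalized with neqc (normexp, negative controls inferred through the detection p, offset 16, quantile, log2) of limma 3.58.1 in R 4.3.3. Probes detected at p under 0.01 on at least 3 arrays were kept (14939, of which 449 had no symbol), and the brightest probe stood for each of 11183 genes. Such a filter keeps a gene that is detected in 1 group alone. A limma model (lmFit, eBayes, 8 residual degrees of freedom) over all 12 arrays tested 6 contrasts, 2-sided, with Benjamini-Hochberg adjustment over all genes at 0.05. The step was tested on simulated data. Where a group had no detected array, "at least" folds use the lowest detected signal. The members and gene lists were chosen with earlier results of these data known. Genes given with every array were 14 chosen by name plus the called members with the largest changes, 8 for each of Ara-C, HS and HS5 against its control and 4 for each other contrast; of each list, up to 3 called genes with the smallest adjusted p in each of the main comparisons, and HSF1. Other normalizations, filters, probe choices, a replicate block, a 1.2-fold minimum and leaving out each array were run as alternatives. Symbols are those of the scanner tables. A few listed genes are not reported here.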

Additional observations from a re-analysis of the deposited data

Results flagged for a closer look

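The effects of HS and HS5 stroma under Ara-C differed in 23 of the 46 tested genes, by limma's contrast between both stroma groups at an adjusted p under 0.05, beside 43.2% of all 11183 genes. The log2 difference, HS5 minus HS, was positive for DNAJA1 (1.10), HSPA1B (1.02), DNAJC9 (0.80), DNAJB2 (0.68), HSP90AA1 (0.66), DNAJC8 (0.63), DNAJC13 (0.58), DNAJC3 (0.54), HSPE1 (0.53), HSPA5 (0.44), DNAJC12 (0.44), HSPH1 (0.40), HSP90B1 (0.37), DNAJB11 (0.36), HSPB1 (0.31), DNAJB14 (0.29) and HSPA8 (0.28). It was negative for DNAJC17 (-0.27), DNAJA2 (-0.27), HSPBAP1 (-0.38), HSP90AB1 (-0.44) and DNAJC15 (-0.62). HSP90AB4P, the other gene called, was below background on all 6 arrays and is given no difference. In a limma test against a minimum of 1.2-fold, 6 of the differences passed, those of DNAJA1, DNAJB2, DNAJC8, DNAJC9, HSP90AA1 and HSPA1B. At that minimum 963 of all 11183 genes were higher with HS5 and 1039 lower. The arrays of the HS and HS5 groups lay on separate sets of adjacent positions of the chip, so effects of position and of group cannot be told apart. The marker sums given in the report also differed between these groups, and their part in the differences was not tested.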

How the results depend on the processing

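The count of genes called kept within 1.5 times of its value in all comparisons but HS5 against Ara-C under quantile normalization without background correction, arrays shifted to a common median, the filters of at least 1 and of all 12 arrays, the best probe of each gene among all kept probes, fits on the 6 arrays compared, and the replicate block. A minimum of 1.2-fold lowered the counts to 17 (Ara-C against untreated), 5 (HS against Ara-C), 0 (HS5 against Ara-C), 6 (HS5 against HS), 10 (HS against untreated) and 18 (HS5 against untreated), from 26, 19, 1, 23, 26 and 28. Over all 11183 genes it left 1674 higher and 1296 lower, 883 and 892, 9 and 1, 963 and 1039, 1293 and 764, and 1795 and 1591 in the same order. The higher threshold is what removes the calls. In HS5 against Ara-C the count of 1 became 0 in limma with a common median, the filter of at least 1 array, all kept probes, the 6 arrays compared and the replicate block, as the call of DNAJB2 was lost (adjusted p from 0.0569 to 0.272). It was also 0 in each fit without 1 array (0 to 0), and in the main fit 3 genes were higher and 4 lower at an unadjusted p under 0.05. Leaving out 1 array at a time gave 23 to 27 genes for Ara-C against untreated, 14 to 19 for HS against Ara-C, 18 to 23 for HS5 against HS, 21 to 27 for HS against untreated and 26 to 28 for HS5 against untreated. HSPD1 in HS against Ara-C turned from 0.00 to -0.57 (adjusted p = 0.0452) when its probe with the smallest p among all kept probes stood for it. Replicate numbers did not pair the arrays: same-number deviations correlated at -0.046 to 0.025 and 0 of 18 pairs exceeded 0.1, and with the replicate block 25 genes were called for Ara-C against untreated, 18 for HS against Ara-C and 21 for HS5 against HS. Of 123 gene results, 79 stayed on their side of the threshold under all alternatives run; over 2435 comparisons of a gene result with an alternative, 107 lost and 11 gained a call. Precision is limited by 3 arrays a group, and dim probes such as DNAJC3, DNAJC11, HSPA6 and HSPBP1 lie close to the lowest detected log2 signal (5.41 to 5.94).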
